A study of Homo sapiens with 12 samples.

Results

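Mucosal epithelia coat their surface with secreted antimicrobial proteins, antiproteases and mucins, and transfer polymeric antibodies into the lumen. The 10 genes described here, OLFM4, LCN2, LTF, BPIFB1, SLPI, WFDC2, PIGR, MUC4, MUC16 and MUC20, belong to this programme, and were counted among 58051 genes. They were chosen by symbol around OLFM4 and PIGR, which were picked for the size of their fall in resistant Cal27 cells and for the difference between the parental Cal27 replicates. Comparisons of resistant with parental Cal27 cells, and of the parental Cal27 replicates with each other, are therefore a description of these genes, with no test.

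Poly(A)-selected RNA was sequenced from 12 libraries in 6 groups of 2 biological replicates. FaDu is a hypopharyngeal and Cal27 a tongue squamous cell carcinoma line, and each was studied as parental, afatinib-resistant (AfaR) and erlotinib-resistant (ErlR) cells, all labelled WT for genotype. Afatinib is a covalent pan-ERBB inhibitor and erlotinib an EGFR inhibitor. Each resistant model is a population selected under stepwise increases of its drug, maintained under drug and then grown without drug just before experiments, so that an AfaR or ErlR group stands for 1 selection in 1 line. The parental cells are the controls, and all 12 libraries carry the same batch label. Replicates are separate cell pellets of 1 model, so p-values measure the spread between pellets, not between selections. In these bulk libraries, fewer cells of a type and less RNA per cell cannot be told apart.

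Libraries held between 16334937 and 23399259 counts on genes, with a median of 16584450. Levels below are CPM, counts brought to a common library total, scaled by the trimmed mean of M values (TMM) over all 12 libraries, and 3 counts corresponded to between 0.128 and 0.184 CPM. Squamous markers were present throughout: at least 8 of 9 (KRT5, KRT14, TP63 and others) were above 1 CPM in every library. The Cal27 parental replicates stood apart from each other in most of the 10 genes, so ratios that rest on them are given also with single replicates.

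By function, OLFM4 is a secreted olfactomedin glycoprotein known from intestinal crypts and neutrophil granules. LCN2 binds bacterial siderophores, LTF binds iron, and BPIFB1 is a secreted airway protein of the bactericidal/permeability-increasing fold. SLPI inhibits neutrophil serine proteases, and WFDC2 shares its whey acidic protein (WAP) domain. PIGR is the receptor that carries polymeric IgA and IgM across epithelial cells. MUC4, MUC16 and MUC20 are membrane-bound mucins, and MUC4 can bind ERBB2. LCN2 and several other genes of this kind are known targets of inflammatory signalling through NF-κB, STAT and C/EBP factors.

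The sequence upstream of 3 genes is shown, for these reasons. OLFM4 and PIGR had the most alike pattern of any pair of the 10 across the libraries, a likeness that follows in part from their choice. LCN2 was the most abundant of the 10 per length in the parental cells of both lines and passed a test in FaDu. The stretches come from RefSeq promoters on GRCh38.p14, where 8 of the 10 genes had an entry, and lie outside exons of these genes in GENCODE 44 and, for OLFM4, before the gene's start in the count files. The LCN2 stretch lies in an intron of a longer transcript. Positions count back from the RefSeq start. Capitals mark matches, on either strand, to TGANTCA (the AP-1 core with any base in its middle), TTGCNNAA (a C/EBP site), TTCNNNGAA (a STAT site) or the NF-κB consensus; no matches overlap. OLFM4 is at chr13:53028563-53028758 on the plus strand, LCN2 at chr9:128149265-128149440 on the plus strand and PIGR at chr1:206946467-206946716 on the minus strand.
OLFM4: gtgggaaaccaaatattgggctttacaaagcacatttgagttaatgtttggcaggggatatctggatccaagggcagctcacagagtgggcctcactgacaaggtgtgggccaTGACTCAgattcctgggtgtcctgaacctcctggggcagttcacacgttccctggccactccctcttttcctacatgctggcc
PIGR: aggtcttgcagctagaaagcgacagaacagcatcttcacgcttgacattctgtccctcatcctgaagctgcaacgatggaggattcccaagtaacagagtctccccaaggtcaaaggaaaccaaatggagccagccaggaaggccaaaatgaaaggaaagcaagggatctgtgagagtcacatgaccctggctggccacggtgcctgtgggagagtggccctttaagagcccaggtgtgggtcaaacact
LCN2: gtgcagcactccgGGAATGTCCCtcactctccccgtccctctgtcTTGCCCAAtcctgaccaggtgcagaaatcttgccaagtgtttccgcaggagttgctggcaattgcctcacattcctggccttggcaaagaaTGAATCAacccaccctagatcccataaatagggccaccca
The search covered 250 bases before each start. OLFM4 held 1 match, TGACTCA at -137 to -131. LCN2 held 3, the NF-κB consensus at -175 to -166, TTGCCCAA at -143 to -136 and TGAATCA at -52 to -46. PIGR held none of the 4 motifs. Among 35116 promoters of the same length, 9.96% held the NF-κB consensus, 9.05% TTGCNNAA, 6.57% TTCNNNGAA and 6.57% TGANTCA. The matches are letters in a window, and binding was not measured.

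In the count files the genes lie on 6 chromosomes of GRCh38, with 2 close pairs. MUC20 (chr3:195720882-195741123) and MUC4 (chr3:195746765-195812277) are 5642 bases apart on opposite strands with 0 coding genes between them. SLPI (chr20:45252239-45254564) and WFDC2 (chr20:45469706-45481532) are 215142 bases apart with 8 coding genes between them. LTF (chr3:46435645-46485234), BPIFB1 (chr20:33273480-33309878), MUC16 (chr19:8848844-8981342), OLFM4 (chr13:53028759-53052057), PIGR (chr1:206928518-206946466) and LCN2 (chr9:128149071-128153455) have no other member nearby. MUC20 is the least certain count: it overlaps MUC20-OT1 on the same strand (30 to 137 counts per library), and a copy, MUC20P1, took up to 31 counts.

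Parental Cal27 cells expressed 9 of the 10 genes, and parental FaDu cells held each of these 9 at a lower level. Per kilobase of exon, the order in Cal27 parental replicate 1 was LCN2 (340.2 CPM per kb), SLPI (56.8), WFDC2 (41.7), OLFM4 (7.23), PIGR (5.94), MUC20 (1.97), LTF (0.343), MUC4 (0.210) and MUC16 (0.143). In replicate 2 the order was the same, from 899 CPM per kb for LCN2 to 0.366 for MUC16. Over the 2 libraries LCN2 did not overlap SLPI and PIGR did not overlap MUC20, while the ranges of all other neighbours in this order overlapped. BPIFB1 had 0 counts in both parental Cal27 libraries.

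Between the parental lines, LCN2 was 48.2 times higher in Cal27 than in FaDu (95% interval 45.0 to 51.8), SLPI 17.2 times (14.8 to 20.1) and WFDC2 144.9 times (100.1 to 218). These exact intervals, like all intervals on count ratios below, cover counting error only. PIGR was 578 times higher (293 to 1340), MUC16 148 times (50.3 to 722), MUC20 13.7 times (10.1 to 19.1) and MUC4 9.54 times (6.60 to 14.2). OLFM4 and LTF had 0 counts in both parental FaDu libraries, and against a floor of 3 counts over the group were at least 1374-fold and at least 87.1-fold higher in Cal27. With Cal27 replicate 1 or 2 alone, the ratios were 26.5 or 70.0 for LCN2, 7.54 or 26.8 for SLPI, 82.1 or 208 for WFDC2, 130 or 1027 for PIGR, 83.5 or 213 for MUC16, 7.43 or 20.0 for MUC20 and 5.58 or 13.5 for MUC4. The bounds were then 278.5-fold or 2472-fold for OLFM4 and 19.3-fold or 154.9-fold for LTF. With FaDu replicate 1 or 2 alone, the ratios were 12.9 or 26.5 for SLPI, 91.2 or 392 for WFDC2 and 39.9 or 8.06 for MUC20. BPIFB1 was the only one of the 10 with more counts in parental FaDu (8) than in parental Cal27 (0). The lines differ in origin and medium, and no test was made between them.

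**Figure D1:**
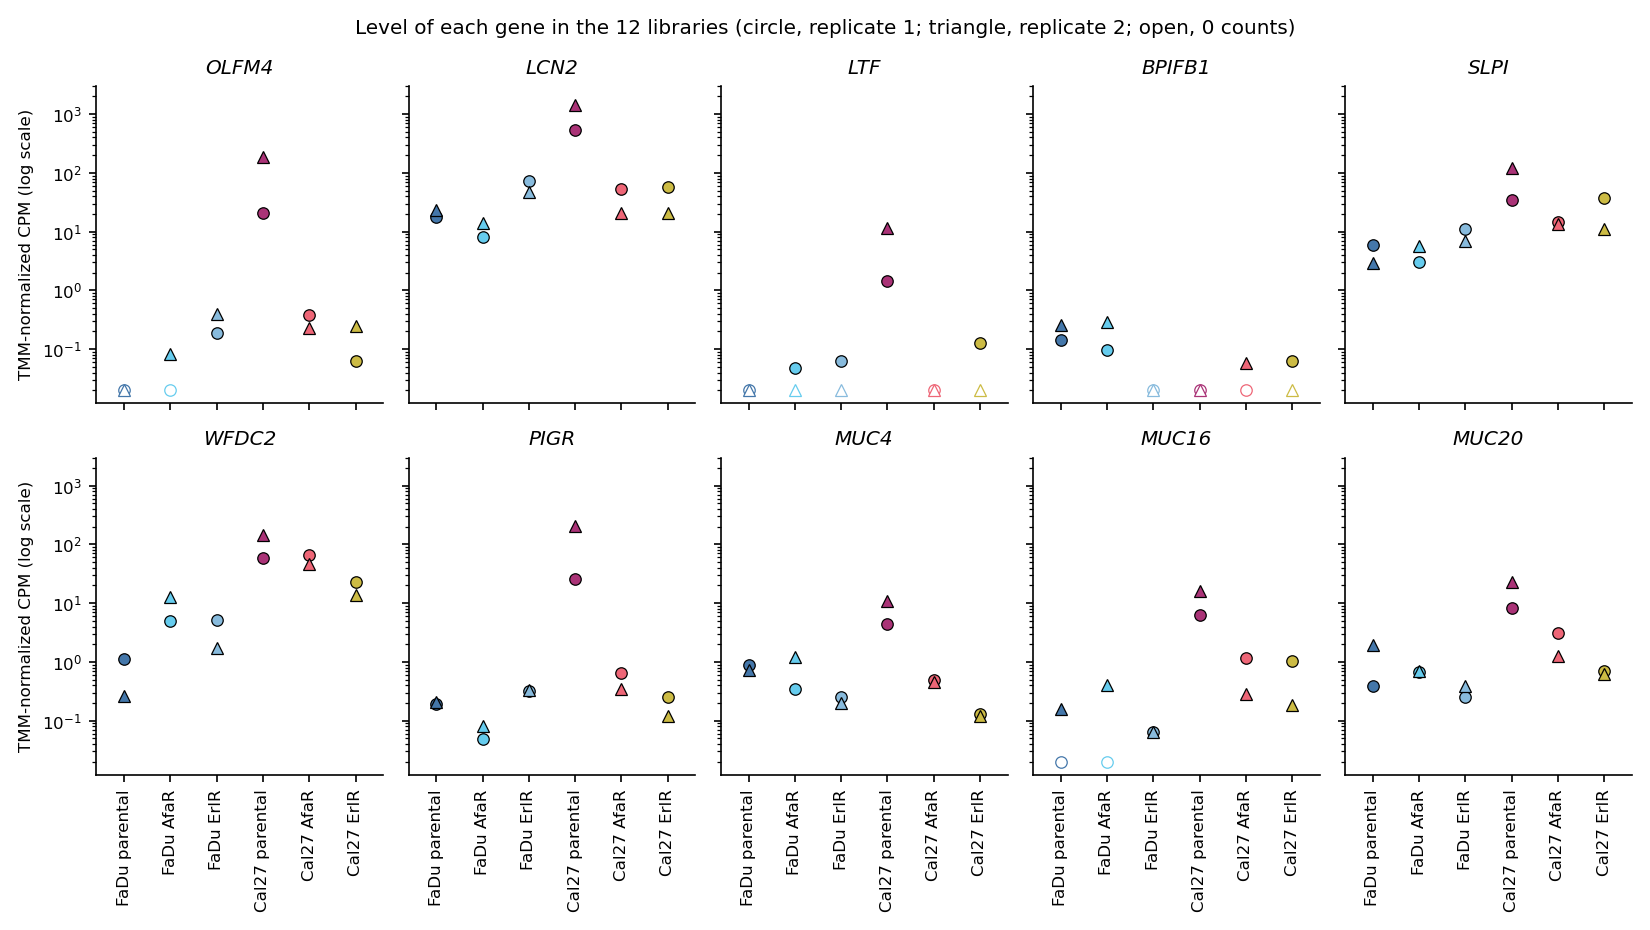
Level of each of the 10 genes in each library, as TMM-normalized CPM on a log axis, by group; circles are replicate 1, triangles replicate 2, and open symbols at the bottom stand for 0 counts. Both parental Cal27 libraries lie above all others for 7 of the 10 genes, for OLFM4 at 20.9 and 186 CPM. The genes were chosen around OLFM4 and PIGR, picked for their fall in resistant Cal27 cells, so this is a description. For SLPI and WFDC2 a resistant library (37.2 and 66.1 CPM) lies above the lower parental one, and BPIFB1 is near 0 throughout.

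The parental Cal27 replicates differed in 9 of the 10 genes. OLFM4 and PIGR were picked in part for this difference, so it is given as values and nothing is read from it. OLFM4 stood at 20.9 CPM in replicate 1 and 186 in replicate 2, an 8.88-fold difference. PIGR stood at 26.0 and 206 CPM (7.92-fold), and LTF at 1.455 and 11.7 CPM (8.01-fold). Every member with counts was higher in replicate 2. SLPI went from 33.9 to 120.4 CPM (3.55-fold), LCN2 from 543.6 to 1436 (2.64-fold) and WFDC2 from 57.7 to 145.9 (2.53-fold). MUC20 went from 8.38 to 22.6 CPM (2.70-fold), MUC16 from 6.29 to 16.0 (2.55-fold) and MUC4 from 4.48 to 10.8 (2.42-fold). These are 2 libraries.

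Of the 7 members that averaged 10 CPM or more in that group, 7 were over 2-fold higher in replicate 2, and of all 9148 such genes 1.05% were over 2-fold higher in replicate 2 and 0.12% in replicate 1. Since the replicate difference took part in the choice of OLFM4 and PIGR, neither this count nor the ranks below support anything about them. Among 9125 such genes with a symbol, ranked by the log2 ratio of CPM + 1, OLFM4 was number 3 and PIGR number 4, behind F13A1 and RARRES1 and ahead of FCGBP. SLPI ranked 12, LCN2 31, MUC20 38, WFDC2 40 and MUC16 50. The genes most shifted towards replicate 1 were SPP1, NAV3, KRT14, TMEM40 and UNC13D. KRT14, a basal keratin, stood at 272 CPM in replicate 1 and 112 in replicate 2, the opposite direction. The squamous markers did not all follow it. KRT5 (2861 and 1993 CPM), KRT6A (125.4 and 57.9) and SFN (575 and 342) were lower in replicate 2 too. KRT17 (383 and 532) and CDH1 (349 and 407) were higher, and TP63 (231 and 223), DSG3 (42.7 and 40.2) and EPCAM (221 and 217) differed little.

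The shift took in other mucosal and inflammatory genes of a related list of 106 genes (mucins, WAP and olfactomedin relatives, BPI, lipocalin, transferrin and polymeric immunoglobulin relatives, other secreted antimicrobials, and epithelial and inflammatory transcription regulators). Of its 33 genes that averaged 10 CPM or more in parental Cal27, 27 were higher in replicate 2, 10 by over 2-fold, and 0 were over 2-fold higher in replicate 1. Their median log2 ratio was 0.45, beside -0.03 for all such genes. The 10 were S100A8, S100A9, AGR2, CCL20, ELF3, CCL28, CEBPD, SAA1, SAA2 and FCGRT. S100A8 and S100A9, the subunits of calprotectin, stood at 27.8 and 91.1 CPM in replicate 1 and at 89.8 and 289 in replicate 2. The serum amyloid gene SAA1 went from 98.3 to 209 CPM.

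Neutrophil RNA was near 0 in these libraries: of 7 defining markers (MPO, ELANE and others), 0 were above 1 CPM in any library, and their summed level was 0.0582 to 0.117 CPM in parental Cal27. Elsewhere the sum reached at most 0.638 CPM, in Cal27 ErlR. Markers of glandular epithelium summed to 2056 to 2714 CPM in parental Cal27, 1393 to 1463 in AfaR and 1042 to 1368 in ErlR, with 5 or 6 of 7 above 1 CPM. The sums were higher in FaDu, at 7009 to 8894 CPM in parental, 2625 to 4390 in AfaR and 3659 to 6104 in ErlR cells. Most of the parental Cal27 sum was KRT8 (1503 and 1075 CPM) and KRT18 (1149 and 909), both lower in replicate 2. KRT7 stood at 34.0 and 40.2 CPM and KRT19 at 9.43 and 9.03, against 974.5 and 1136 for KRT19 in parental FaDu. Their part in the results was not tested.

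**Figure D2:**
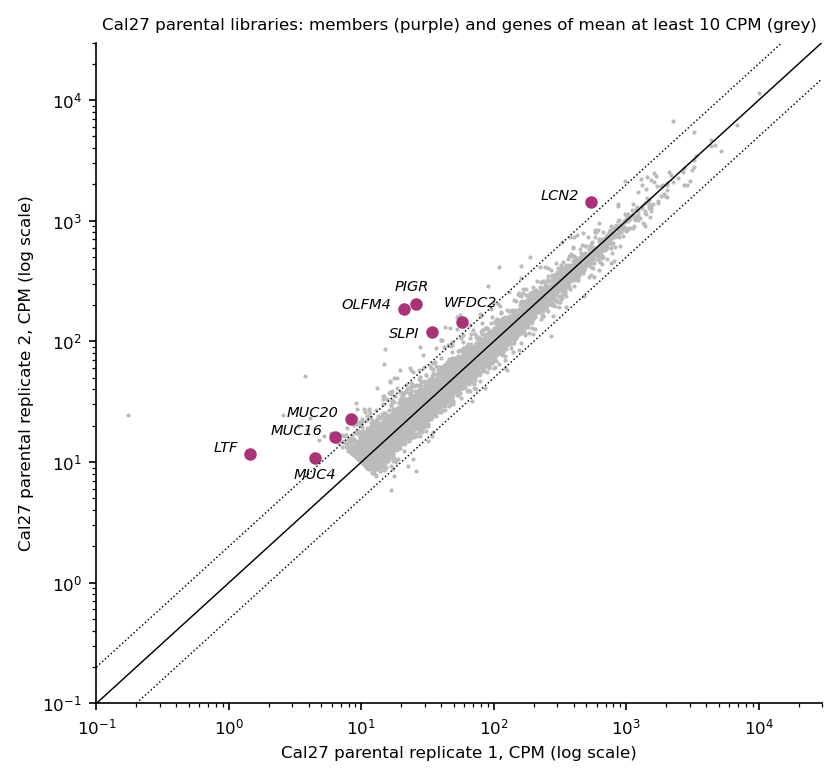
Level of each gene in the parental Cal27 replicates, in TMM-normalized CPM on log axes; grey points are the 9148 genes that averaged 10 CPM or more, purple points the members with counts, the solid line equality and the dotted lines 2-fold differences. All 9 purple points, LTF and MUC4 with means under 10 CPM included, lie above the upper dotted line, OLFM4, PIGR and LTF farthest from it.

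In resistant Cal27 cells OLFM4 and PIGR were close to the detection limit. OLFM4 stood at 0.378 and 0.232 CPM in AfaR (7 and 4 counts) and at 0.0638 and 0.244 CPM in ErlR (1 and 4 counts), against 20.9 and 186 CPM in parental cells. Every resistant library lay below both parental libraries. The parental level was 336 times that of AfaR (95% interval 188 to 674) and 663 times that of ErlR (284 to 2043). With parental replicate 1 alone the ratios were 68.2 (37.6 to 138) and 134 (57.0 to 416), and with replicate 2 alone 605 and 1192.

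PIGR, the antibody transporter, stood at 0.647 and 0.348 CPM in AfaR and at 0.255 and 0.122 CPM in ErlR, against 26.0 and 206 CPM in parental cells. The parental level was 230.5 times that of AfaR (146 to 389) and 619 times that of ErlR (284 to 1689). Against parental replicate 1 alone it was 51.7 and 139 times. With parental replicate 2 alone it was 409.6 and 1101 times.

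LCN2, the siderophore-binding lipocalin, stayed measurable in resistant cells. It stood at 52.6 and 21.1 CPM in AfaR and 57.0 and 20.3 CPM in ErlR, against 543.6 and 1436 in parental cells. The ratios, 26.5 for AfaR (25.0 to 28.0) and 25.9 for ErlR (24.4 to 27.4), were close to each other, and with parental replicate 1 alone were 14.5 and 14.2, or with replicate 2 alone 38.4 and 37.5. Within AfaR and ErlR, replicate 1 was the higher by 2.5 and 2.8 times. LTF had 0 counts in both AfaR libraries and 2 and 0 in ErlR, against 25 and 200 in parental cells. Parental cells were at least 78.2-fold higher than AfaR, against 3 counts over the group, and 105 times higher than ErlR (28.7 to 872). With parental replicate 1 or 2 alone, these were at least 17.4-fold or 139-fold, and 23.3 or 187 times. BPIFB1 had 0 to 1 count in every Cal27 library.

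The antiproteases had the smallest ratios of the 9 detected genes. SLPI stood at 14.3 and 13.3 CPM in AfaR and at 37.2 and 11.1 CPM in ErlR, against 33.9 and 120.4 in parental cells. The ErlR libraries overlapped the parental ones, and the AfaR libraries did not. Parental SLPI was 5.56 times AfaR (5.05 to 6.13) and 3.23 times ErlR (2.98 to 3.51), but with parental replicate 1 alone 2.44 and 1.42 times, and with replicate 2 alone 8.68 and 5.05 times. WFDC2 stood at 66.1 and 46.1 CPM in AfaR and 22.6 and 13.6 CPM in ErlR, against 57.7 and 145.9 in parental cells. Its AfaR libraries overlapped the parental ones, and with parental replicate 1 alone the ratio to AfaR was 1.02 (0.946 to 1.10), against 2.58 with replicate 2 alone and 1.80 with both. The ErlR libraries were below both parental ones, with a ratio of 5.66 (5.18 to 6.19), or 3.21 with replicate 1 alone and 8.12 with replicate 2 alone.

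In these contrasts, which chose the genes, all 3 mucins were lower in every resistant Cal27 library than in either parental library. MUC4 stood at 4.48 and 10.8 CPM in parental cells, 0.486 and 0.464 in AfaR and 0.128 and 0.122 in ErlR, ratios of 16.1 (9.88 to 28.1) and 61.4 (23.7 to 227). MUC16 stood at 6.29 and 16.0 CPM in parental cells, 1.19 and 0.290 in AfaR and 1.02 and 0.183 in ErlR, ratios of 14.8 (10.0 to 22.7) and 18.8 (11.9 to 31.6). MUC20 stood at 8.38 and 22.6 CPM in parental cells, 3.13 and 1.28 in AfaR and 0.702 and 0.611 in ErlR, ratios of 6.93 (5.47 to 8.88) and 23.6 (15.3 to 38.5). With parental replicate 1 or 2 alone, the ratios to AfaR were 9.43 or 22.8 for MUC4, 8.33 or 21.2 for MUC16 and 3.75 or 10.1 for MUC20. Those to ErlR were 35.9 or 86.9, 10.6 or 27.0, and 12.8 or 34.5.

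In edgeR's quasi-likelihood fit over the 6 Cal27 libraries, 9 of the 10 genes passed the filter on low counts, several only through their parental level. A gene was called when its adjusted p was below 0.05 and its level differed by more than 2-fold, a log2 fold change beyond 1 or -1. Under these limits 8 of the 9 were called lower and 0 higher in AfaR (all but WFDC2), and 8 were called lower and 0 higher in ErlR (all but SLPI). Over all 15269 genes, 8.06% were called lower and 11.5% higher in AfaR, and 9.92% lower and 3.56% higher in ErlR. Since these contrasts chose the genes, nothing is read from the counts. Without parental replicate 2, log2 fold changes in AfaR and ErlR were -6.06 and -7.01 for OLFM4, -5.67 and -7.07 for PIGR, -3.88 and -3.82 for LCN2, -1.29 and -0.49 for SLPI, and -0.04 and -1.68 for WFDC2. They were -8.36 and -9.34, -7.83 and -9.25, -4.74 and -4.71, -2.48 and -1.71, and -0.86 and -2.52 with all libraries. SLPI no longer passed the limits in AfaR without either AfaR library (log2 fold change -2.53 or -2.41), and passed them in ErlR without parental replicate 1 (-2.32) or ErlR replicate 1 (-2.82). WFDC2 passed them in AfaR without parental replicate 1 (-1.38).

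Squamous markers moved with the groups as well: their summed level was 881.5 to 982.5 CPM in AfaR, 4926 to 4958 in ErlR and 3923 to 5060 in parental Cal27, with 8 or 9 of 9 above 1 CPM. The sum is mostly KRT5 outside AfaR, and single markers differed in ErlR too: KRT14 stood at 30.6 and 12.2 CPM there and at 0.917 and 1.62 in AfaR, against 272 and 112 in parental cells, and DSG3 at 13.0 and 12.9 in ErlR against 42.7 and 40.2. TP63 was higher in ErlR, at 368 and 407 against 231 and 223 CPM. Of the 4 fibroblast markers, 3 were above 1 CPM in AfaR and parental cells, and their sum was 282 to 289 CPM in AfaR, 28.8 to 39.8 in parental cells and 4.21 to 9.59 in ErlR, mostly COL1A1. The 3 endothelial markers, 2 of them above 1 CPM in every Cal27 library, summed to 31.7 to 32.6 CPM in parental cells, 30.0 to 37.3 in AfaR and 2.49 to 6.04 in ErlR. Most of this was CDH5, at 30.3 and 30.7 CPM in parental cells and 1.09 and 4.15 in ErlR. Other immune markers summed to at most 6.35 CPM. The part of these lists in the lower levels of the members was not tested.

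**Figure D3:**
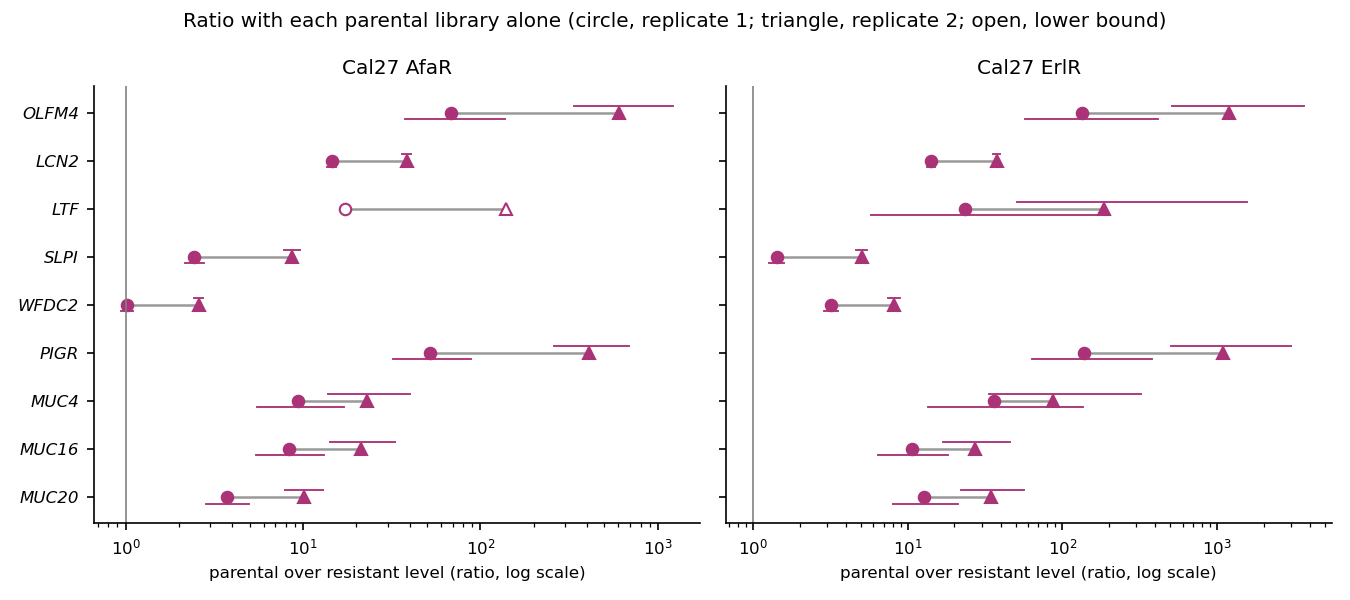
Ratio of the parental to the resistant level in Cal27 for 9 members, on a log axis, with parental replicate 1 alone (circles) or replicate 2 alone (triangles); purple bars are exact 95% count intervals, grey lines join the replicates, and open symbols are lower bounds for LTF, which had 0 counts in AfaR. With either replicate OLFM4 and PIGR have the highest ratios of the genes that are not bounds, while WFDC2 in AfaR starts at 1.02 and SLPI in ErlR at 1.42.

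The resistant Cal27 models were compared with each other by a test, since the choice of genes rested on contrasts with parental cells. The same resistant libraries entered that choice, and earlier results of these data were known. The test is therefore not fully independent of the choice. WFDC2 was higher in AfaR than in ErlR, at 66.1 and 46.1 against 22.6 and 13.6 CPM (log2 fold change 1.66, SE 0.41, adjusted p = 0.00787, edgeR). MUC20 was higher too, at 3.13 and 1.28 against 0.702 and 0.611 CPM (log2 fold change 1.77, SE 0.66, adjusted p = 0.0493, edgeR). No AfaR library overlapped an ErlR library for either gene. The other 7 tested members were not called in either direction, and of all genes 18.2% were called higher and 8.86% lower in AfaR than in ErlR.

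Both calls depended on single libraries. WFDC2 lost its call without AfaR replicate 1 (log2 fold change 1.37, adjusted p = 0.0767, edgeR) and kept it without each of the other 3 libraries. MUC20 lost its call without AfaR replicate 1 (0.97, adjusted p = 0.374), ErlR replicate 1 (1.87, 0.115) or ErlR replicate 2 (1.65, 0.136), in edgeR, and with DESeq2 (1.76, adjusted p = 0.0624). Among the rest, MUC4 was 0.486 and 0.464 against 0.128 and 0.122 CPM, on 9 and 8 against 2 and 2 counts. It passed the filter on low counts only through its parental level, so nothing is read from its test. LCN2 had a log2 fold change of -0.04 with an SE of 0.57, so differences of over 2-fold either way are within 2 SE. OLFM4, PIGR, LTF and MUC4 rest on 0 to 12 counts per library here and could not be resolved.

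FaDu cells held little of the programme. LCN2 led in CPM per kb in parental and ErlR cells (12.9 and 37.3), and SLPI in AfaR (7.21, beside 6.95 for LCN2). OLFM4 had 0 to 6 counts per FaDu library, PIGR 1 to 5, LTF 0 to 1, BPIFB1 0 to 7 and MUC16 0 to 10, and none of these 5 passed the filter. OLFM4 had 0 counts in both parental libraries and 3 and 6 in ErlR (0.192 and 0.392 CPM). The 5 genes that passed were LCN2, SLPI, WFDC2, MUC4 and MUC20.

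LCN2 separated the FaDu groups. It stood at 17.9 and 23.3 CPM in parental, 72.0 and 47.2 in ErlR and 8.05 and 14.2 in AfaR cells. The 3 groups did not overlap, ErlR being highest and AfaR lowest. The rise in ErlR passed the test (log2 fold change 1.52, SE 0.27, adjusted p = 0.0233, edgeR), the lower level in AfaR did not (-0.90, SE 0.28, adjusted p = 0.0548), and AfaR was lower than ErlR (-2.42, SE 0.29, adjusted p = 0.0024). The difference between AfaR and ErlR was called without each of the 4 libraries in turn, at log2 fold changes from -2.89 to -2.08. The rise in ErlR was not: it lost its call without parental replicate 1 (1.34, adjusted p = 0.156), parental replicate 2 (1.72, 0.0891) or ErlR replicate 1 (1.18, 0.0613). The lower level in AfaR was called without AfaR replicate 2 (-1.37, adjusted p = 0.0424).

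WFDC2 was higher in FaDu AfaR, at 4.99 and 12.7 CPM (103 and 309 counts) against 1.12 and 0.260 CPM in parental cells (23 and 5 counts). The log2 fold change was 3.64 (SE 0.72, adjusted p = 0.0129, edgeR), and the groups did not overlap. The call was lost without parental replicate 2 (2.96, adjusted p = 0.0575) or AfaR replicate 2 (2.82, adjusted p = 0.0745), and the fold change was 5.03 without parental replicate 1 and 4.15 without AfaR replicate 1. In ErlR WFDC2 stood at 5.24 and 1.70 CPM, also above both parental libraries, but the difference was not called (log2 fold change 2.30, SE 0.75, adjusted p = 0.117, edgeR). With DESeq2 it was (2.31, adjusted p = 0.0316).

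The other 3 tested members were not called in FaDu. SLPI stood at 5.97 and 2.91 CPM in parental, 3.00 and 5.59 in AfaR and 10.9 and 6.79 in ErlR cells (log2 fold change in ErlR 0.98, SE 0.41, adjusted p = 0.210, edgeR). MUC4 stood at 0.873 and 0.727 CPM in parental, 0.339 and 1.23 in AfaR and 0.256 and 0.196 in ErlR cells. MUC20 stood at 0.388 and 1.92 CPM in parental, 0.679 and 0.699 in AfaR and 0.256 and 0.392 in ErlR cells. In ErlR both mucins had log2 fold changes of about the same size, -1.81 (SE 0.76) and -1.82 (SE 0.78), with adjusted p-values of 0.210 and 0.222 from edgeR, on 3 to 37 counts per library.

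Thus 1 of 5 tested members was called higher and 0 lower in FaDu AfaR, beside 6.48% and 0.954% of all 15092 genes. In ErlR 1 was called higher and 0 lower, beside 1.54% and 0.504%. Between AfaR and ErlR 0 were called higher and 1 lower, beside 4.45% and 1.5%. Scaling by the ERCC spike-in moved the median log2 fold change of all genes by 0.18 in AfaR, 0.49 in ErlR and -0.31 between them. Under it LCN2 (2.04), WFDC2 (2.83) and SLPI (1.49) were called higher in ErlR, values that include the shift of 0.49. The split of all calls between AfaR and ErlR was 671 higher and 226 lower with TMM, and 437 and 743 with ERCC scaling.

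**Figure D4:**
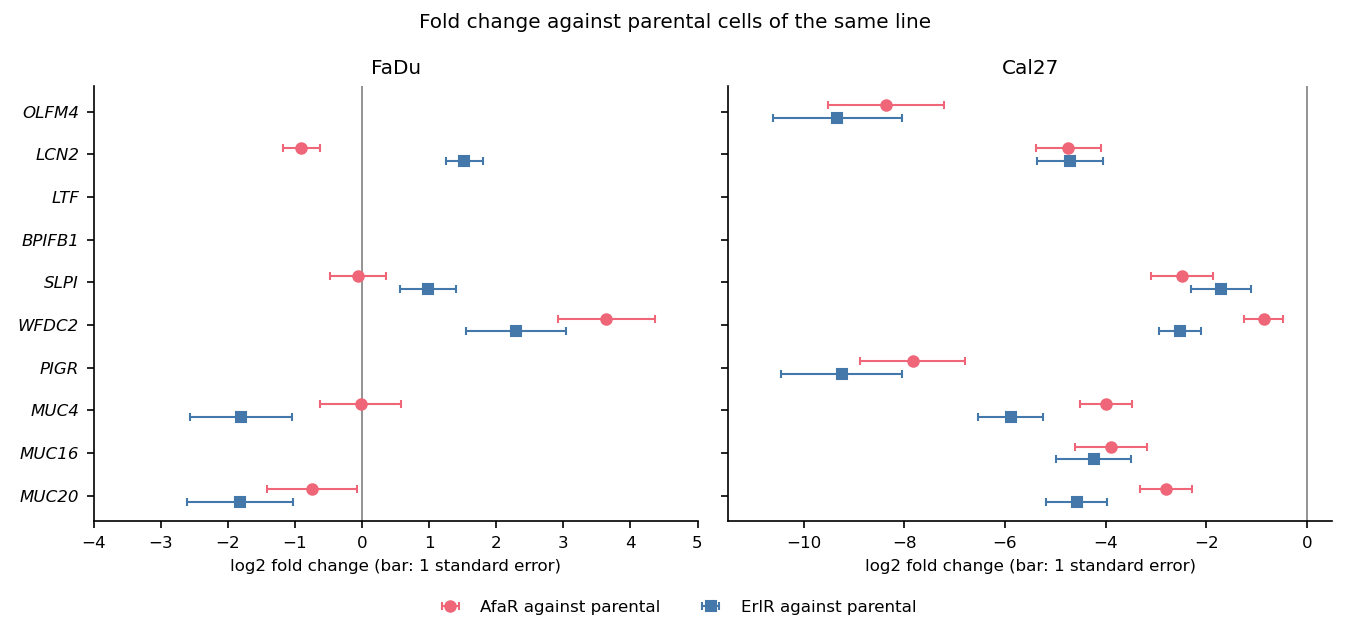
Log2 fold change of each tested member in AfaR (red circles) and ErlR (blue squares) against parental cells of the same line, with bars of 1 standard error; LTF is left out since it had 0 counts in Cal27 AfaR. In Cal27 every point is below 0, from -0.86 for WFDC2 in AfaR to -9.34 for OLFM4 in ErlR, while in FaDu LCN2 (1.52) and WFDC2 (2.30) lie above 0 in ErlR.

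The related list of 106 genes describes the surroundings of these members, and contains none of them. In FaDu, 42 were tested. In AfaR 5 were called higher and 2 lower (median log2 fold change 0.16, all genes 0.00), in ErlR 3 and 2 (-0.01, all genes 0.00), and between AfaR and ErlR 6 and 2 (0.18, all genes 0.01). The percentages of all genes called in these contrasts are those given above for the members, 6.48% higher and 0.954% lower in AfaR. The 7 calls in AfaR became 1 without parental replicate 1 and 1 without AfaR replicate 2. The 8 between AfaR and ErlR became 2 without AfaR replicate 2, 1 without ErlR replicate 2 and 12 without AfaR replicate 1. In AfaR the acute-phase gene SAA1 stood at 1.65 and 7.93 CPM against 0.194 and 0.571 in parental cells (adjusted p = 0.0168, edgeR), the epithelial factor KLF4 was 51.8 and 70.0 against 18.2 and 27.5 (adjusted p = 0.0165), and the chemokine gene CCL28 0.485 and 1.07 against 0.0485 and 0. Both parental levels of CCL28 were under that of 3 counts, so nothing is read from its call. Among those lower, the factor KLF5 stood at 39.4 and 41.9 against 116.5 and 104 CPM (log2 fold change -1.46, adjusted p = 0.00107, edgeR), and MUC2, a gel-forming mucin, at 0.0485 and 0.329 against 0.776 and 1.45.

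The 5 calls in FaDu ErlR became 1 without parental replicate 1, 0 without parental replicate 2, 4 without ErlR replicate 1 and 0 without ErlR replicate 2, and 1 with the replicate number as a block. In FaDu ErlR the skin antimicrobial ribonuclease RNASE7 stood at 3.26 and 9.67 against 1.21 and 0.727 CPM in parental cells (log2 fold change 2.71, adjusted p = 0.0458, edgeR). OLFM1, an olfactomedin relative, stood at 9.07 and 12.9 against 2.38 and 4.41 CPM (1.69, adjusted p = 0.0420), and the cystatin gene CST6 at 20.2 and 23.1 against 9.75 and 6.44 (1.40, adjusted p = 0.0148). CST1 (0 and 0.0653 against 0.825 and 0.675 CPM) and the secretory disulfide isomerase AGR2 (0.128 and 0.653 against 2.47 and 1.97) were called lower. Between AfaR and ErlR, MUC1, SAA1 and CST1 were the largest of those higher in AfaR and CST6 and KLF5 the 2 lower.

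In Cal27, 55 related genes were tested. In AfaR 10 passed the limits higher and 23 lower (median log2 fold change -0.53, all genes 0.00), and in ErlR 2 and 23 (-0.99, all genes -0.03). Of all genes, 11.5% passed them higher and 8.06% lower in AfaR, and 3.56% higher and 9.92% lower in ErlR. These are the contrasts that chose the members, and the values are given as a description. The largest falls in AfaR were the S100 genes: S100A8 stood at 0.378 and 0.406 against 27.8 and 89.8 CPM in parental cells, S100A9 at 3.67 and 2.03 against 91.1 and 289, and S100A7 at 0 counts in both libraries against 3.84 and 8.04. In ErlR they were S100A7 (0.255 and 0 CPM), CCL20 (1.21 and 1.83 against 23.4 and 60.7) and SAA2 (2.30 and 2.56 against 42.2 and 89.1). Of 17 other antimicrobial and secretory products tested, 12 passed the limits lower and 0 higher in AfaR, and 10 lower and 0 higher in ErlR. By sign alone, 13 were negative and 4 positive in AfaR, and 15 negative and 2 positive in ErlR.

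The direction was not shared by all families. Of 7 WAP and olfactomedin relatives tested, 4 passed the limits higher in AfaR and 2 lower, beside 11.5% and 8.06% of all genes. OLFML2B stood at 34.5 and 27.6 CPM in AfaR against 0.349 and 0.408 in parental cells. Of 22 epithelial and inflammatory transcription regulators tested, 4 passed the limits higher and 7 lower in AfaR. In ErlR 1 passed them higher and 7 lower, beside 3.56% and 9.92% of all genes. SPDEF, ELF3 and FOXA1 were among those lower in both. Of those higher in AfaR, CREB3L1, a factor of secretory cells, stood at 7.34 and 7.48 against 0.466 and 0.583 CPM in parental cells. FOXA3 stood at 0.594 and 0.870 against 0. In ErlR the endodermal factor FOXA2 stood at 7.34 and 9.65 against 1.80 and 0.816 CPM, and WFDC3 at 1.34 and 1.465 against 0.407 and 0.117. In AfaR FOXA2 was lower than in parental cells, at 0.216 and 0.058 CPM. Between AfaR and ErlR, 17 of the 55 related genes were called higher and 9 lower, beside 18.2% and 8.86% of all genes. OLFML2B, CREB3L1 and FOXA3 were the largest of those higher in AfaR. All of these were under 1 CPM in the parental and ErlR libraries. FOXA3, at 0 CPM there, passed the filter on low counts only through AfaR, so nothing is read from its call. FOXA2 (log2 fold change -5.83, adjusted p = 6.28e-05, edgeR), PI3, the elafin gene (-4.31, adjusted p = 0.000643), and CST6 (-3.45, adjusted p = 2.25e-05) were the largest of those lower.

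Across the 12 libraries the pattern of OLFM4 was most like that of PIGR, with a Pearson correlation of 0.998 on log2(CPM + 1). This is a description over 12 points of which 2, the parental Cal27 libraries, are high. OLFM4 and PIGR were picked for these same values, so their likeness follows in part from the choice and nothing is read from it. Among 10636 genes with at least 10 CPM in 1 library, SERPINA5 (0.990), LTF (0.975), SERPINB4 (0.962) and MUC16 (0.960) followed. For PIGR the same 5 places were held by OLFM4 (0.998), SERPINA5 (0.989), LTF (0.972), SERPINB4 (0.971) and MUC16 (0.966). SERPINA5, the protein C inhibitor gene, stood at 9.25 and 20.7 CPM in parental Cal27 and at or under 0.427 in the other 10 libraries. SERPINB4, a squamous cell carcinoma antigen gene with a near-identical neighbour, stood at 14.7 and 35.6 CPM in parental Cal27.

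Summed over the 10 genes, the level was 703 and 2155 CPM in parental Cal27, 139 and 83.2 in AfaR and 119 and 46.2 in ErlR. LCN2 made up 77.4% and 66.6% of it in parental cells and 37.9% and 25.3% in AfaR. In FaDu the sum was 26.6 and 29.7 CPM in parental, 17.3 and 35.3 in AfaR and 89.3 and 57.1 in ErlR cells. The ErlR sums of the lines, 46.2 to 119 CPM, overlapped, whereas the parental sums did not.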

How the data were processed

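Per the labels, reads were trimmed with Trimmomatic 0.36, aligned to GRCh38 with STAR 2.5.2b and counted with featureCounts of Subread 1.5.2, and the authors deposited raw counts per Ensembl gene. The strand setting and annotation release are not given in the sources used here, and 92 ERCC sequences (3.86% to 5.82% of counts) were left out of library sizes. Tables holding the authors' normalized counts and comparisons were not used. The quasi-likelihood test of edgeR 4.0.16 (R 4.3.3; TMM, filterByExpr, Benjamini-Hochberg) was run in 1 fit of 6 libraries per line with 3 residual degrees of freedom, over 15092 (FaDu) and 15269 (Cal27) genes. The limits were an adjusted p of 0.05 and a log2 fold change of 1. The script was tested on simulated data. SE is the log2 fold change over the square root of F. Ratios of counts have exact 95% intervals (scipy 1.17.1). All 10 genes, the 3 largest called rises and falls of the related list per contrast, the 5 genes most like OLFM4 and PIGR, and the 5 most shifted either way between parental Cal27 replicates are named, with the related genes over 2-fold there and the markers that moved named after their values were seen. Members and lists were chosen with earlier results of these data known. Alternatives were DESeq2 1.42.0, upper-quartile and ERCC scaling, other filters, fits of 4 libraries, a replicate block and leaving out each library.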

Additional observations from a re-analysis of the deposited data

Results flagged for a closer look

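ErlR cells moved in opposite directions in the lines for 2 genes, and the difference between the lines was not tested for either. For LCN2 the log2 fold change against parental cells was 1.52 in FaDu and -4.71 in Cal27, a distance of 6.23, with both ErlR libraries above both parental ones in FaDu and below both in Cal27. For WFDC2 it was 2.30 in FaDu, where it did not pass the test, and -2.52 in Cal27, a distance of 4.82, again with no overlap in either line. Both Cal27 values are among those that chose the genes. Groups of 2 libraries are too small for a check of single outlying libraries.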

How the results depend on the processing

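In Cal27 against parental cells, the contrasts that chose the genes, 7 to 9 members passed the limits in AfaR and 8 to 9 in ErlR over left-out libraries, and nothing is read from these counts. Requiring at least 10 counts in every library left 3 in each, since it removes genes that fell, with 20 related genes in AfaR. Between Cal27 AfaR and ErlR, members called were 1 with DESeq2 and 1 with that filter (16 related), and 0 to 2 over left-out libraries. In FaDu AfaR, 0 members were called with at least 10 counts in every library (4 related; 12 without a filter), and 0 to 1 over left-out libraries (1 to 8 related). In FaDu ErlR, members called were 2 with DESeq2, 2 without a filter, 3 with ERCC scaling and 0 to 1 over left-out libraries. Related genes called there were 11 with ERCC scaling, 10 without a filter, 3 with at least 10 counts and 0 to 4 over left-out libraries. Between FaDu AfaR and ErlR, 2 members were called with ERCC scaling, 3 without a filter and 1 whichever library was left out (1 to 12 related). The cause was not tested.

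Of the recomputed fold changes of members, 387 kept direction and side of the limits, 13 lost their call, 14 gained one and 17 changed sign. None of the values that changed sign was called with all libraries: in FaDu AfaR, SLPI (0.0146 with upper-quartile and 0.12 with ERCC scaling) and MUC4 (0.0533 and 0.17), and between Cal27 AfaR and ErlR, LCN2 (0.0615 with upper-quartile scaling, 0.0252 with at least 10 counts). Over left-out libraries, FaDu AfaR ranged from -0.58 to 0.54 for SLPI, -1.24 to 0.59 for MUC4 and -1.50 to 0.79 for MUC20. Between Cal27 AfaR and ErlR the ranges were -0.85 to 0.88 for LCN2, -1.43 to 0.35 for SLPI and -0.999 to 2.01 for MUC16. A group left with 1 library is assumed to vary like the others.

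Replicate numbers did not pair the samples: deviations of same-numbered libraries correlated at -0.26 to 0.16. With the replicate block, related genes called in FaDu ErlR were 1 in place of 5, SLPI in FaDu AfaR was 0.0147 (log2), and no call of a member changed. Depth limits OLFM4, PIGR and LTF outside parental Cal27, where they have 0 to 12 counts.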
